A study of Mus musculus with 6 samples.

Results

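Transcripts of 9 genes tied to the resting state and the recirculation of T cells were compared between mouse CD8+ T cells exposed to neutrophil extracellular traps (NETs) and control CD8+ T cells. The genes were taken by symbol, as a list chosen with earlier results of these data known. They comprise 5 Krüppel-like factors (Klf2, Klf3, Klf6, Klf10 and Klf13), 2 forkhead box O factors (Foxo1 and Foxo3) and 2 receptors for sphingosine 1-phosphate (S1pr1 and S1pr4). All 9 had values, among 15605 genes with values of 22064 listed, and all 9 passed the filter on low counts that left 12546 genes to test.

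The study asked how NETs, webs of chromatin and granule proteins cast out by activated neutrophils, act on cytotoxic T cells in metastasis. CD8+ T cells were purified from BALB/c mouse spleens, and 3 samples were given NETs at 10 μg/mL while 3 samples were controls without NETs. According to the study's methods, the NETs came from neutrophils stimulated with a phorbol ester. The labels number the samples of each group from 1 to 3 without naming mice or cultures, so a p-value here speaks only of the scatter among these 6 samples, and that scatter may be technical. What the controls were given in place of NETs and how long the cells were exposed are not in the labels. The age of the mice behind each sample and any receptor stimulation of these cells are not in the labels either.

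KLF2 and FOXO1 are transcription factors that hold naive T cells in quiescence, a small, non-dividing state from which antigen releases them. In that state FOXO1 sits in the nucleus, where it activates genes of survival and homing that include Klf2. AKT and SGK kinases phosphorylate FOXO1 and send it out of the nucleus once the T cell receptor or cytokine receptors signal. KLF2 in turn activates S1pr1, whose product senses the sphingosine 1-phosphate (S1P) of blood and lymph and lets T cells leave lymphoid organs. KLF factors bind CACCC and related GC-rich DNA through C-terminal zinc fingers.

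Library totals were between 18696355 and 19425700 estimated counts. Levels below are counts scaled to a common library size (CPM) after adjustment between libraries by the trimmed mean of M values (TMM), or, where genes are compared with each other, FPKM, which also divides by transcript length. Control samples 2 and 3 were closest to each other, and the second principal component, with 8.29% of the variance, set both libraries numbered 1 apart, so fold changes were also computed without those libraries. The summed level of 12 T cell markers was 4670 to 4940 CPM in controls and 3319 to 3713 CPM with NETs, and Cd8a itself was at 786 CPM or more in every library. The summed level of 10 B cell markers was 29.6 to 38.1 CPM in controls and 112 to 174 CPM with NETs, with 9 of the 10 higher. Macrophage and monocyte markers summed to 64.8 to 71.1 CPM in controls and 109 to 123 CPM with NETs, and neutrophil markers to 20.0 to 23.5 CPM and 34.3 to 53.6 CPM. The complement genes C1qa, C1qb and C1qc stayed at 0 to 3 counts in each library, and the neutrophil granule gene Camp was at 0 in the controls and at 4 to 6 counts with NETs. The part of these cells in the results below was not tested, and in bulk RNA fewer cells of a type and less RNA per cell cannot be told apart.

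At an edgeR adjusted p below 0.05, 8 of the 9 genes were lower with NETs and 0 were higher. Over all genes tested, 44.6% were called, 22.3% as lower and 22.3% as higher. These shares give a scale only, because the 9 genes were not chosen independently of these data. Groups did not overlap for any of the 9 genes, nor for 54.7% of all genes tested. The falls ran from 10.5-fold for Klf2 to 1.32-fold for Klf6, and Foxo3 alone had the higher mean with NETs, at an unadjusted edgeR p of 0.0305. By DESeq2 and limma-voom 8 genes were lower and 0 higher as well, with 1 gene higher at an unadjusted p below 0.05 in each.

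**Figure D1:**
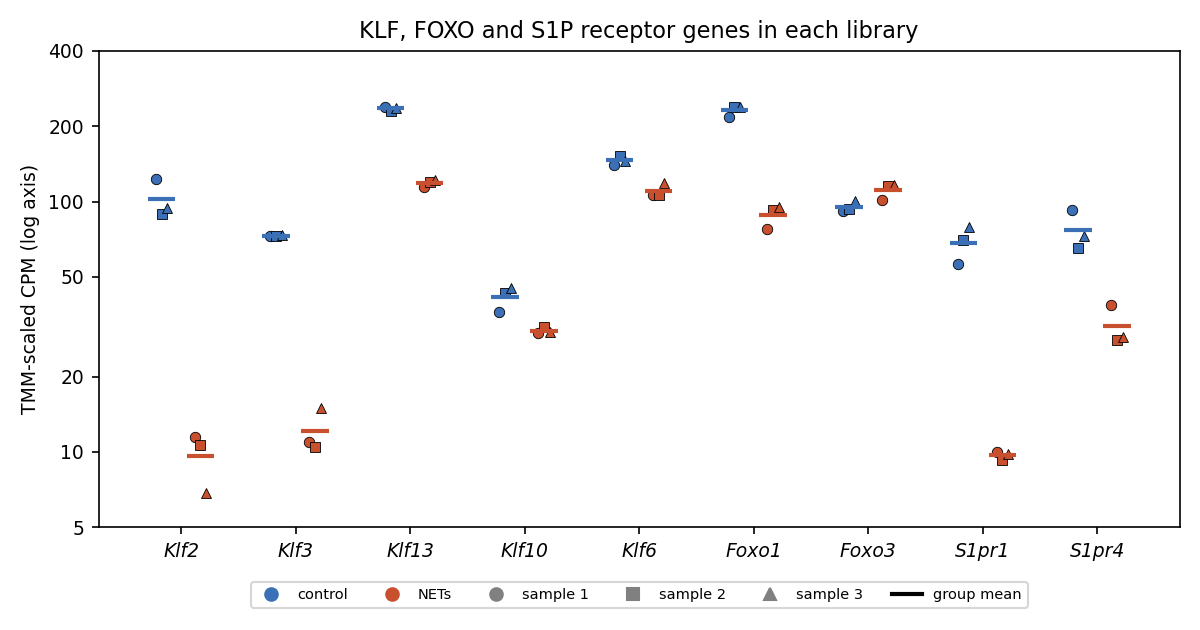
TMM-scaled CPM on a log axis for each of the 9 genes in the 3 control (blue) and 3 NET (red) libraries, with symbols for sample number and bars for group means. Klf2, Klf3 and S1pr1 lay between 6.83 and 14.9 CPM in every NET library, and Foxo3 was the only gene with its NET libraries above its controls.

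Klf2, the quiescence and egress regulator, lies on chromosome 8 from 72319062 to 72321654 (GRCm38.p6). It was at 123, 88.7 and 94.4 CPM in control samples 1 to 3 and at 11.5, 10.7 and 6.83 CPM in NET samples 1 to 3. The lowest control was thus far above the highest NET sample, with control 1 the highest and NET 3 the lowest of the 6. The mean went from 102 ± 18.2 CPM (SD, n = 3) to 9.67 ± 2.50 CPM, a log2 fold change of -3.40 ± 0.20 (SE) with a 95% interval of -3.83 to -2.96 and an edgeR adjusted p of 7.9e-07. Without both libraries numbered 1 the log2 fold change was -3.38.

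Klf3 encodes a KLF factor that mostly represses, by recruiting the corepressor CTBP. The gene spans positions 64803521 to 64832901 of chromosome 5. Control samples held 72.8, 72.8 and 73.5 CPM and NET samples 10.9, 10.4 and 14.9 CPM. The controls lay almost on each other, whereas NET sample 3 was above the other NET samples. The fall was 6.04-fold, from 73.0 ± 0.41 to 12.1 ± 2.46 CPM (log2 fold change -2.59 ± 0.13, edgeR adjusted p = 4.57e-07).

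The promoters of these genes, the KLF genes with the largest falls, are shown because MEF2 factors are known to act on the Klf2 promoter, and KLF1 on that of Klf3 in red cell precursors. The windows hold 250 bases before and 50 bases after the annotated start (RefSeq, GRCm38.p6), which is chr8:72318812-72319111 on the plus strand for Klf2 and chr5:64803271-64803570 on the plus strand for Klf3. Capitals mark the MEF2 match in Klf2 and every CACCC, on either strand, in Klf3.
Klf2: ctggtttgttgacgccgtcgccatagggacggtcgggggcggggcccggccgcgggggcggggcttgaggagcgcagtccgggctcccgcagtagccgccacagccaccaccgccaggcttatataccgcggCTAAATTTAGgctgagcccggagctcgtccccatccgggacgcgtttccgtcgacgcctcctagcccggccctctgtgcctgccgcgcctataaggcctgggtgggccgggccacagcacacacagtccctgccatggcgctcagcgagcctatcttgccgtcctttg
Klf3: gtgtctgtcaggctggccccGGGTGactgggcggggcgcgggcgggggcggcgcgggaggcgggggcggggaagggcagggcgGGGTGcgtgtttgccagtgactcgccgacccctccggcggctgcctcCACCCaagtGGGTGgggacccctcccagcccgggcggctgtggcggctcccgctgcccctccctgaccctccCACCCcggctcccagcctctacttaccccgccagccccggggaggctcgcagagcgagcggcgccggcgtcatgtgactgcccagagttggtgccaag

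The MEF2 match of Klf2 lay -118 to -109 bases from the start, and 0.557% of 32851 mouse promoters of the same length hold a match to that motif. Klf3 had 5 CACCC matches, the earliest at -230 to -226 and the last at -48 to -44, none of them overlapping another. A CACCC on either strand was present in 57.5% of all promoters and in 4 of the 7 promoters found for the 9 genes (Klf2, Klf3, Klf6, Klf13, Foxo1, Foxo3 and S1pr4). The GC box CCGCCC, which SP and KLF factors bind and which can neighbour or overlap CACCC, was in 6 of the 7, all but that of S1pr4, and in 35.7% of all promoters. The forkhead sequence GTAAACA was in 0 of the 7 and in 3.65% of all promoters, and the E-box CACGTG was in 1, that of Klf6, and in 7.15% of all. All motifs were searched on both strands, and a match is a description of the letters, not of a bound site.

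Klf13, an activator known for driving the chemokine gene CCL5 in human T cells, spans 63886351 to 63938915 on chromosome 7. It was at 238, 231 and 237 CPM in the controls and at 114, 120 and 121 CPM with NETs. Replicates of both groups stayed within a narrow band and were far apart. The level with NETs was 50.4% of control, with a log2 fold change of -0.99 ± 0.082 and an edgeR adjusted p of 8.32e-06.

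Klf10 is an early response gene of transforming growth factor beta (TGF-beta) and lies from 38291464 to 38300711 on chromosome 15. Control samples had 36.0, 43.0 and 45.1 CPM, and NET samples had 29.8, 31.6 and 30.0 CPM. The gap between the groups was small, since control 1 was close above NET 2. The log2 fold change was -0.44 ± 0.11 (edgeR adjusted p = 0.00707), and its highest adjusted p with any 1 library left out was 0.0453.

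Klf6, which encodes a widely expressed KLF activator, lies from 5861489 to 5870393 on chromosome 13. It was at 140, 152 and 145 CPM in controls and at 106, 106 and 119 CPM in NET samples. All controls were above all NET samples, with NET 3 nearest to the controls. The log2 fold change was -0.40 ± 0.088 (edgeR adjusted p = 0.00429), the smallest fall of the 8. Neither Klf6 nor Klf10 passed a threshold of 0.58 on the log2 fold change applied in addition, which left 6 of the 9 genes lower.

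Foxo1, which activates Klf2, Il7r and Ccr7 in naive T cells, spans 52268337 to 52350109 on chromosome 3. It was at 218, 238 and 239 CPM in controls and at 77.4, 92.3 and 95.2 CPM with NETs. Sample 1 was the lowest of its group on both sides, and every NET sample was below 100 CPM. The fall was 2.63-fold (log2 fold change -1.39 ± 0.10, edgeR adjusted p = 3.96e-06).

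Foxo3 encodes the related factor that favours cell cycle arrest and apoptosis, and spans 42181845 to 42276695 on chromosome 10. Its levels were 91.4, 93.0 and 100.1 CPM in controls and 101, 116 and 117 CPM with NETs. The groups did not overlap, but control 3 and NET 1 were almost level. The log2 fold change was 0.23 ± 0.092 with a 95% interval of 0.027 to 0.43 and an edgeR adjusted p of 0.0644, so that no change was called. Without NET sample 1 the log2 fold change was 0.30 and the adjusted p 0.0331, and without both libraries numbered 1 they were 0.27 and 0.0231. Over all alternatives the adjusted p of Foxo3 ran from 0.0149 to 0.199.

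S1pr1, the egress receptor, lies from 115710433 to 115715055 on chromosome 3. It was at 56.5, 69.9 and 79.3 CPM in control samples 1 to 3 and at 10.0, 9.30 and 9.83 CPM in NET samples 1 to 3. The controls were spread (coefficient of variation 16.7%) and the NET samples nearly equal (3.75%). The fall was 7.06-fold (log2 fold change -2.82 ± 0.14, 95% interval -3.13 to -2.51, edgeR adjusted p = 3.22e-07), and -2.96 without both libraries numbered 1.

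S1pr4, a receptor for S1P found mainly on lymphoid and other blood cells, lies from 81497745 to 81500137 on chromosome 10. It was at 92.2, 65.2 and 73.0 CPM in controls and at 38.5, 27.9 and 28.7 CPM with NETs. Sample 1 was the highest of each group, opposite to S1pr1 among the controls. The fall was 2.42-fold (log2 fold change -1.28 ± 0.16, edgeR adjusted p = 0.00013).

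Without both libraries numbered 1 the log2 fold change was -2.53 for Klf3, -0.40 for Klf6, -0.52 for Klf10, -0.96 for Klf13, -1.35 for Foxo1 and -1.29 for S1pr4. All 8 genes called lower were called in that fit too, with an edgeR adjusted p of 0.00665 or less, and Klf10 was the one whose estimate moved most in proportion.

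Annotated neighbours share bases with some of these genes, and the sources used here do not say whether counting used the strand. Klf3 overlaps Gm38457, at 6.37 to 34.8 counts a library against 202 or more for Klf3, and Klf13 overlaps E030018B13Rik, at 0 to 2 counts. Klf3, Klf10, Klf13 and Foxo3 also overlap non-coding genes that have no row of values here, so reads from those cannot be told apart from the genes named.

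Per transcript length, the order of the 9 genes was rearranged. In controls Klf2 led at 57.1 ± 11.1 FPKM, followed by Foxo1 (41.6 ± 1.48 FPKM). Klf13 (36.7 FPKM), Klf6 (34.6 FPKM) and S1pr4 (32.5 FPKM) came next, with overlapping samples between neighbours. S1pr1 (22.7 FPKM) and Klf3 (19.9 FPKM) also overlapped, and Foxo3 and Klf10, both at 13.6 FPKM, were last. With NETs Klf6 led at 26.5 ± 1.85 FPKM, ahead of Klf13 (18.7 ± 0.54 FPKM). Foxo3 (16.2 FPKM), Foxo1 (16.1 FPKM) and S1pr4 (13.6 FPKM) overlapped from neighbour to neighbour, and Klf10 (10.1 FPKM) followed. Klf2 (5.48 FPKM), Klf3 (3.38 FPKM) and S1pr1 (3.26 FPKM) closed the order, again overlapping from neighbour to neighbour.

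Within each library Foxo1 stood at 2.99, 3.20 and 2.99 times the FPKM of Foxo3 in controls and at 0.95, 1.00 and 1.02 times with NETs. The FOXO factors were therefore close to equal in every NET library and 3-fold apart in every control. The log2 ratio differed by -1.63 between the groups. S1pr1 was at 0.48, 0.84 and 0.85 times the FPKM of S1pr4 in controls and at 0.20, 0.26 and 0.27 times with NETs, a log2 difference of -1.53. Both S1P receptors fell, and the lowest control ratio, that of control 1, was above every NET ratio. The FPKM of Klf2 over the summed FPKM of the other KLF genes went from 0.42 to 0.057 as geometric means, a log2 difference of -2.87. For each of the 3 ratios a two-sided exact permutation test over the 6 samples gave p = 0.1, which is the smallest value that 3 against 3 samples allow, and 0.1 after adjustment over the 3.

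**Figure D2:**
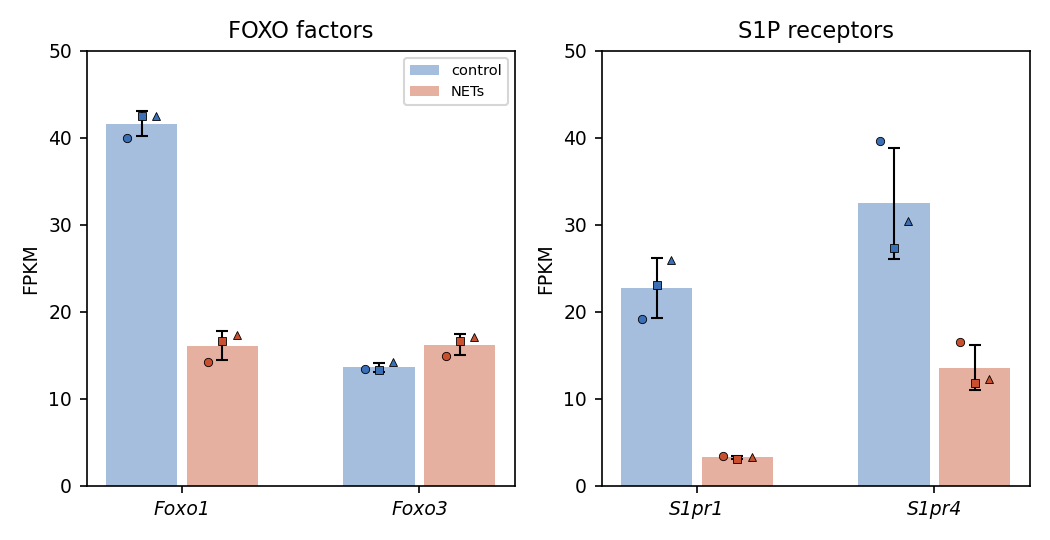
FPKM of Foxo1 and Foxo3 (left) and of S1pr1 and S1pr4 (right), with bars for group means, error bars for the SD (n = 3) and points for single libraries (circle, square and triangle for samples 1 to 3). Foxo1 came down to the level of Foxo3 with NETs, at 16.1 against 16.2 FPKM, and S1pr1 fell to 3.26 FPKM.

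Other members of the families moved less uniformly, but the 9 genes had been chosen with earlier results of these data known. Of 7 further KLF genes tested, 3 were lower and 1 was higher with NETs, beside 22.3% each way over all genes. Klf9, a glucocorticoid-responsive gene, was at 11.6 CPM in controls and 6.08 CPM with NETs (log2 fold change -0.93). The repressor gene Klf12 was lower by a similar step, from 15.6 to 8.21 CPM. Klf11, a relative of Klf10, was called at -0.63 with an edgeR adjusted p of 0.0202 but lost the call without NET sample 1 (adjusted p = 0.065), NET sample 3 (0.068) or control sample 3 (0.0609). Klf7 alone rose, from 63.8 ± 2.39 to 104 ± 16.0 CPM (log2 fold change 0.70 ± 0.11, edgeR adjusted p = 0.000751). Klf8, Klf16 and Klf4 were not called, at log2 fold changes of -0.10, 0.083 and -0.096, and those of Klf16 and Klf4 changed sign when single libraries were left out. Klf1 and Klf5 had 1 to 9 counts a library and were not tested.

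**Figure D3:**
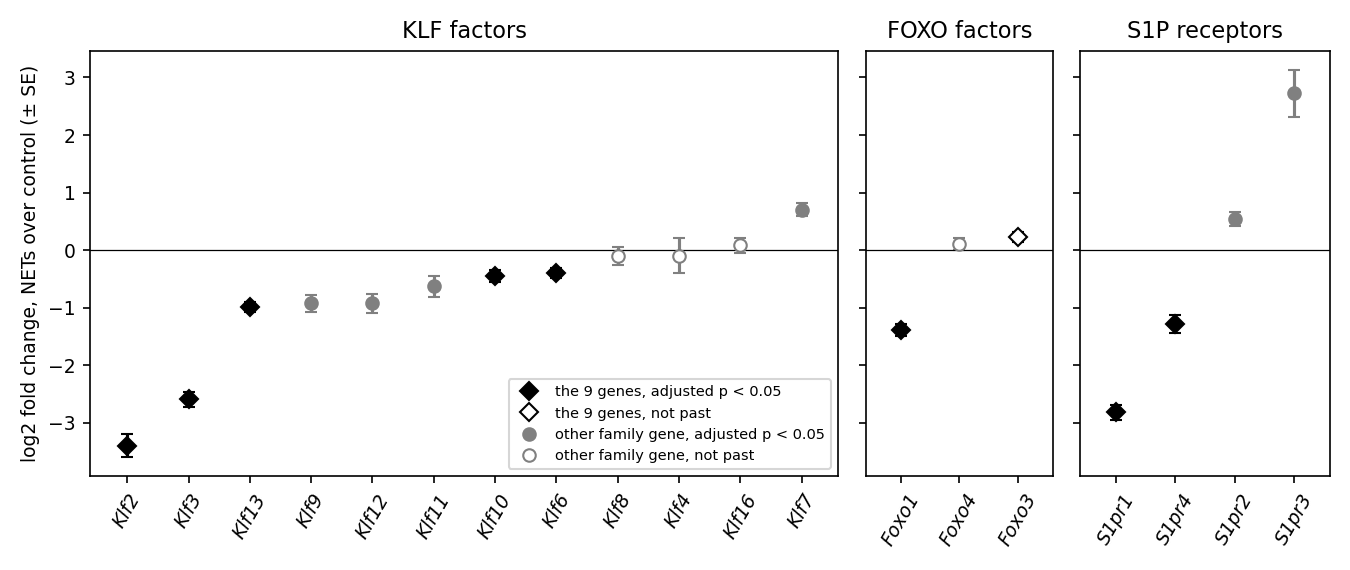
Log2 fold change (NETs over control, ± SE from edgeR) for every tested gene of the 3 families, with diamonds for the 9 genes, circles for other family members and filled symbols for an adjusted p below 0.05. The values run from -3.40 for Klf2 to 0.70 for Klf7 among KLF genes and from -2.82 for S1pr1 to 2.72 for S1pr3 among receptors. S1pr3 was rare, at 0.16 CPM in controls.

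The make-up of the KLF transcript pool shifted with these changes. The 14 KLF genes with values summed to 192.6 ± 13.4 FPKM in controls and to 99.5 ± 2.81 FPKM with NETs, or 51.6% of control. Klf2 held 33.6%, 27.0% and 27.9% of the summed KLF FPKM in controls and 6.63%, 6.19% and 3.79% with NETs. It was the largest contributor in every control library and behind Klf6, Klf13, Klf7, Klf16 and Klf10 in every NET library. Klf3 went from 10.4% to 3.39% of the pool. The share of Klf13 was 19.1% ± 0.77 in controls and 18.8% ± 0.50 with NETs, its own fall being close to that of the pool. Klf6 went from 18.02% to 26.7% and Klf7 from 4.93% to 15.7%, while Klf16 went from 6.68% to 13.9% at 12.9 FPKM in controls and 13.8 FPKM with NETs. Shares of a pool are tied to each other, and no test was run on them.

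**Figure D4:**
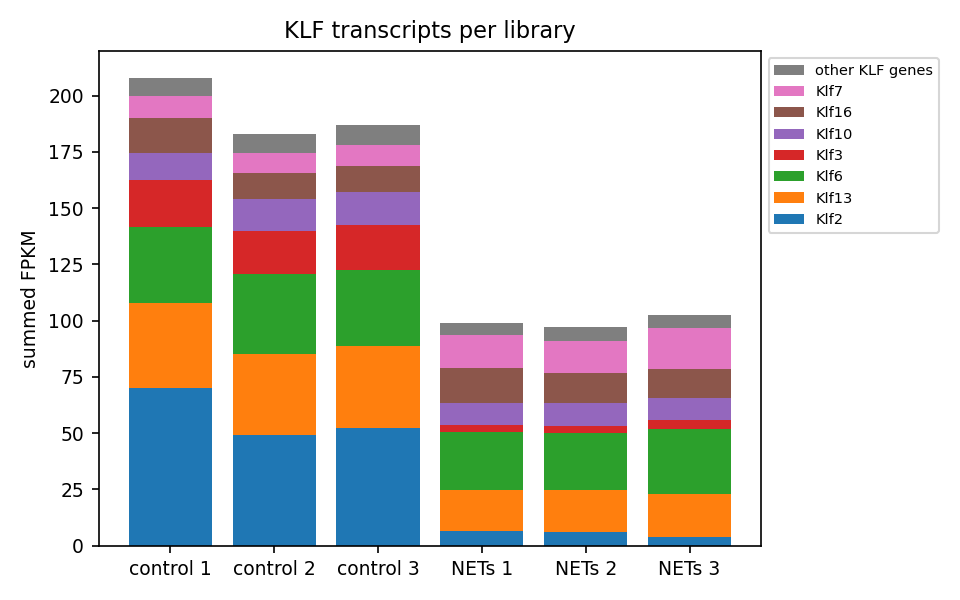
FPKM of KLF genes stacked for each of the 6 libraries, with the 7 most abundant named and the rest summed in grey. The bars total 183 to 208 FPKM in controls and 97.0 to 102.5 FPKM with NETs, and the Klf2 segment shrinks to 6.56 FPKM or less.

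Of the other FOXO genes, Foxo4 was at 26.4 CPM in controls and 28.3 CPM with NETs and was not called (log2 fold change 0.10, edgeR adjusted p = 0.471), and Foxo6 had at most 1 count in a library. Of the other S1P receptors, S1pr2 was higher with NETs, opposite to S1pr1 and S1pr4. S1pr3 was called higher too, but it passed the filter on low counts only through its NET libraries. S1pr2, a receptor that opposes migration, went from 8.53 ± 0.30 to 12.4 ± 0.87 CPM (log2 fold change 0.54, edgeR adjusted p = 0.00503). S1pr3, a receptor best known outside T cells, stayed rare, at 0.16 CPM in controls and 1.09 CPM with NETs (log2 fold change 2.72 ± 0.40). Over the alternatives in which S1pr3 was tested its log2 fold change ran from 0.27 to 3.00. With the stricter low-count filter S1pr2 was the 1 other receptor left as higher. S1pr5, which NK and some memory CD8+ T cells use, had 0 or 1 count in every library.

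Upstream of FOXO, 20 genes of the PI3K, AKT and SGK arm were tested, of which 4 were higher and 6 lower (median log2 fold change -0.05, against -0.01 over all genes). Beside this and the other list counts, 22.3% of all genes tested were called higher and 22.3% lower, so several lists were near that rate. Sgk1, the kinase that phosphorylates FOXO factors beside AKT, was at 19.6, 26.6 and 25.9 CPM in controls and at 195, 181 and 197 CPM with NETs. Every NET sample was several-fold above every control, and the log2 fold change was 2.99 ± 0.13 (edgeR adjusted p = 1.35e-07). Pik3ap1, an adaptor that brings PI3K to receptors, rose by 1.26 on the log2 scale, alongside the B cell markers given above. Which cells its RNA came from was not tested. Among inhibitors of the arm, Pik3ip1, which restrains PI3K, had a log2 fold change of -1.89 and the AKT phosphatase gene Phlpp1 -0.86. Pik3cb, a catalytic subunit, was higher at 0.51, but the regulatory subunit genes Pik3r1 (-0.42) and Pik3r5 (-0.41) were lower. Of the AKT genes, Akt1 was called higher (0.38) and Akt2 lower (-0.26). Of 17 genes for FOXO turnover and modification 4 were higher and 1 lower. They were the ubiquitin ligase gene Mdm2 (0.81), the methyltransferase gene Prmt1 (0.63), the Hippo kinase gene Stk3 (0.77), the 14-3-3 gene Ywhae (0.27) and, lower, the FOXO-phosphorylating kinase gene Stk4 (-0.60). Ywhae lost its call without NET sample 1, NET sample 2 or any single control, with edgeR adjusted p-values of 0.0543 to 0.106.

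Downstream, 23 genes that FOXO factors are known to regulate in T cells divided into 12 lower, 5 higher and 6 not called (median log2 fold change -0.30). Bcl2l11, the BIM death-inducing gene, was at 200.4, 216.4 and 215.5 CPM in controls and 25.8, 27.5 and 32.5 CPM with NETs. Tcf7, which encodes TCF1 of naive and memory cells, went from 565 ± 53.5 to 89.1 ± 11.5 CPM. The groups were far apart for both, with log2 fold changes of -2.88 ± 0.11 and -2.67 ± 0.12. The cell cycle inhibitor gene Cdkn1b (-1.65) and the lymph node homing receptor gene Ccr7 (-1.45) were lower too. Against that direction, the transcriptional coregulator gene Cited2 rose from 16.7 ± 0.73 to 37.8 ± 6.13 CPM (log2 fold change 1.18 ± 0.13, edgeR adjusted p = 5.92e-05). The stress gene Sesn1 (0.73) also rose. Il7r, the survival receptor gene that FOXO1 activates, was higher rather than lower, at 63.3, 100.3 and 102 CPM in controls and 108, 152 and 116 CPM with NETs. Its groups lay close together, and the log2 fold change of 0.50 ± 0.18 was barely called (edgeR adjusted p = 0.0484). The call was lost on leaving out control sample 1, NET sample 2 or NET sample 3, with log2 fold changes of 0.31, 0.36 and 0.56 and edgeR adjusted p-values of 0.0979, 0.174 and 0.0753 in that order.

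Upstream of KLF2, 11 genes of the ERK5 and MEF2 route were tested, with 2 higher and 3 lower. Mef2c, a MEF2 factor that B cells and myeloid cells also express, rose from 3.67 ± 0.21 to 18.7 ± 3.33 CPM, alongside the B cell markers given above. Hdac7, a class IIa histone deacetylase that binds MEF2, rose by 0.93 on the log2 scale, whereas its relative Hdac4 (-0.41), the factor gene Mef2d (-0.35) and the kinase gene Map3k3 (-0.25) were lower. Map3k3 was not called without NET sample 1, NET sample 2, control sample 2 or control sample 3, at edgeR adjusted p-values of 0.092 to 0.176. Of 8 ubiquitin ligase genes linked to KLF proteins, 2 were higher and 3 lower. Fbxw7, whose product marks KLF2 for degradation in endothelial cells, was at 34.0, 35.6 and 37.5 CPM in controls and at 130, 120 and 142 CPM with NETs (log2 fold change 1.88 ± 0.097, edgeR adjusted p = 4.57e-07), with no NET sample near a control. Wwp1, another such ligase, was higher at 0.53 but not called without NET sample 3 (edgeR adjusted p = 0.0641), and Siah1a (-0.52), Nedd4l (-0.47) and Smurf2 (-0.46) were lower.

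Of 11 cofactor genes of KLF factors 5 were lower and the other 6 were not called by edgeR (median log2 fold change -0.18), and in 9 of 20 alternatives 1 or 2 of them were higher. Lower were the acetyltransferase gene Kat2b (-0.86) and the GC-box factor genes Sp3 (-0.62) and Sp1 (-0.45). The corepressor gene Sin3a (-0.43) and Ctbp1 (-0.34), the partner of KLF3, completed the 5 lower genes. Sp3 was not called without control sample 3 (edgeR adjusted p = 0.0534), and Ctbp1 was not called without NET sample 2, NET sample 3, control sample 1 or control sample 3 (0.0732 to 0.136).

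Of 9 trafficking genes linked to KLF2 that were tested, 4 were called higher and 4 lower, with Itgb7, whose values are in doubt, among the lower. The integrin gene Itgae, which tethers CD8+ T cells in epithelia, was at 66.1, 64.9 and 83.7 CPM in controls and 13.6, 12.9 and 13.8 CPM with NETs (log2 fold change -2.41 ± 0.12). Cxcr4, the receptor for the stromal chemokine CXCL12, had a log2 fold change of -1.39. Ccr7, which is also in the FOXO list, fell. Itgb7, an integrin chain for gut homing, fell by 2.53 on the log2 scale, but its deposited values were identical to those of Bcl2 in all 6 samples, so the change cannot be assigned to either gene. Genes on the other side included Cd69 and the chemokine receptor gene Ccr6 (0.97 to 8.18 CPM), which B cells also express. Cd69 encodes the membrane protein that binds S1PR1 and takes it off the surface, and it was at 67.9, 85.4 and 86.9 CPM in controls and at 201.8, 211.2 and 249.7 CPM with NETs. It was thus above every control in each NET sample, while S1pr1 was below every control, with a log2 fold change of 1.46 ± 0.12 and an edgeR adjusted p of 9.63e-06.

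Around the S1P receptors, 19 genes of signalling and desensitization gave 2 higher and 7 lower (median log2 fold change -0.21). Ripor2, which restrains T cell polarity and migration, went from 205 ± 24.3 to 58.9 ± 6.56 CPM (log2 fold change -1.80). The receptor kinase gene Grk6 (-0.69), the GTPase gene Rhoh (-0.81) and the arrestin gene Arrb1 (-0.67) were lower, whereas the other arrestin gene Arrb2 (0.61) and Cd69 were higher. Of 17 genes that make, break down or export S1P, 4 were higher and 2 lower. The lipid phosphatase gene Plpp1 (1.81) was higher but rare, at 1.90 CPM in controls and 6.66 CPM with NETs. The S1P lyase gene Sgpl1 (0.78) and the ceramide synthase gene Cers2 (0.41) were higher too. The ceramide synthase genes Cers6 (-0.68) and Cers4 (-0.45) were lower. Sphk1, the inducible kinase that makes S1P, had 0 to 3 counts in controls and 5 to 14 counts with NETs and was not tested.

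Of 13 genes of the TGF-beta pathway around KLF10, 5 were higher and 3 lower. The ligand gene Tgfb1 went from 154 ± 11.3 to 426 ± 28.2 CPM (log2 fold change 1.47 ± 0.097). Its receptors went opposite ways, with Tgfbr1 at -0.93 and Tgfbr2 at 0.40. The SMAD repressor gene Ski (0.64) was higher. So was the ligand-binding Ltbp3 (1.13), which was rare at 1.685 CPM in controls and 3.69 CPM with NETs. Klf10, described above as an early response gene of TGF-beta, was lower in the same libraries. Smurf2 and Smad4 (-0.29) were lower, and Smad4 was not called without NET sample 1, NET sample 2, control sample 2 or control sample 3 (edgeR adjusted p = 0.05001 to 0.131).

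Among 24 other genes that restrain naive T cells, 16 were lower and 1 was higher, and the median change was -0.52 on the log2 scale. For comparison, the 12 general T cell markers had a median of -0.51, with 9 lower and 1 higher. Ets1, a transcription factor that naive T cells need for their survival, was at 1095, 1194 and 1247 CPM in controls and 243, 318 and 285 CPM with NETs. Its groups were well apart, at a log2 fold change of -2.06 ± 0.12. Bach2, a repressor of effector genes, fell by 1.69, and Cdkn1b, Pik3ip1 and Ripor2, each also in a list above, were lower. Gimap5, which T cells need to survive at rest, was the 1 gene of this list that rose (0.60 ± 0.092).

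**Figure D5:**
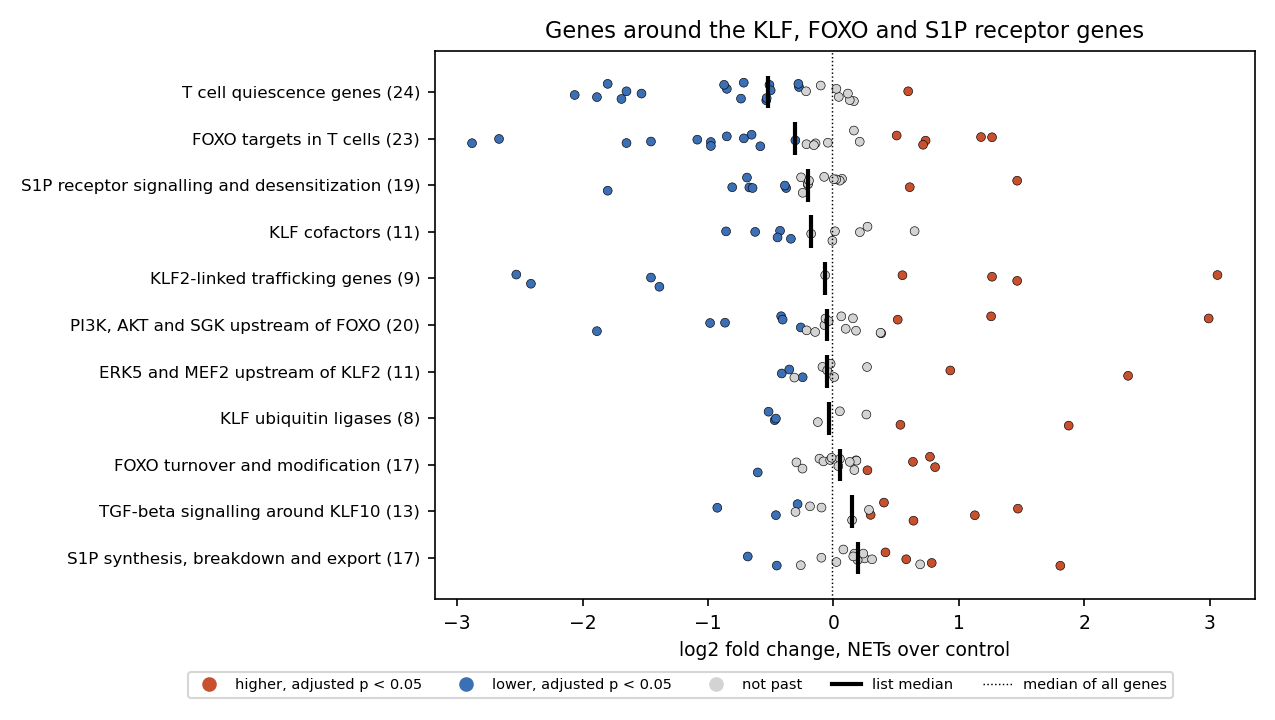
Log2 fold change (NETs over control) of each tested gene in 11 lists around the 9 genes, with the number tested in parentheses, red for higher and blue for lower at an edgeR adjusted p below 0.05, grey for not called, a thick bar for the list median and a dotted line for the median of all genes. The medians run from -0.52 for T cell quiescence genes to 0.19 for S1P synthesis, breakdown and export.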

How the data were processed

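Poly(A) RNA libraries marked for strand with dUTP were sequenced for 3 NET and 3 control samples. The authors deposited estimated counts per gene, not scaled between libraries, of which 31.6% were whole to within 0.005, and FPKM values, in which the authors divided by transcript length and sequencing depth. The submitters' processing notes name build mm10. Not given in the sources used here are the aligner, the counter, the annotation and the strand setting. Rows blank in all 6 samples (6459 of 22064) were taken as missing, and 0 sample columns were left unmapped.

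Estimated counts were rounded, filtered with filterByExpr, scaled with TMM and compared by the quasi-likelihood F test of edgeR 4.0.16 (R 4.3.3; group as the only term, two-sided, Benjamini-Hochberg adjustment over 12546 genes, threshold 0.05). Standard errors come from the F statistic. CPM and FPKM are given as mean ± SD with n = 3. Ratios within libraries were compared on the log2 scale of FPKM by exact permutation. Coordinates and promoters come from RefSeq (GRCm38.p6), to which 99.7% of gene IDs matched. On simulated counts for this comparison (12419 genes) the fit recovered 36 of 50 genes changed by 1.5-fold, 49 of 50 by 2-fold and 50 of 50 by 4-fold and by 8-fold, and called 15 unchanged genes. Replicates differed by more than sampling noise, since the chi-square per degree of freedom was 3.05 at its lowest (controls 2 and 3) and 27.0 at its highest.

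The 9 genes and 14 pathway lists were chosen with earlier results of these data known. Named genes are the 9, all tested genes of their families, and from each other list up to 5 called genes with the smallest adjusted p plus up to 3 in the less frequent direction; genes named from the 9 marker lists are defining or abundant ones. Bcl2, Il7r, Pik3r1, Pik3r5, Akt1 and Akt2 were named after their values were seen. A few genes picked by this rule enter the list counts only and are not reported here by name. Alternatives were RLE, upper quartile and library total scaling, TMM after dropping the top 1% of genes, no filter and a stricter filter, DESeq2 1.42.0, limma-voom and limma 3.58.1 on log2(FPKM + 1) and log2(FPKM + 0.1), a fold threshold of 0.58, a block for replicate number, each library left out in turn and both libraries numbered 1 left out.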

Additional observations from a re-analysis of the deposited data

How the results depend on the processing

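Under 20 alternatives 6 of the 9 genes kept their direction and call in all. The count of genes lower with NETs was 6 to 8, and 6 only with the fold threshold. The count higher was 1 in place of 0 with upper quartile scaling, library totals, the stricter low-count filter, the replicate block or both libraries numbered 1 left out, and 0 to 1 with single libraries left out; the gene was Foxo3 each time. Of the genes in the pathway lists, 36 in place of 59 were lower and 24 in place of 34 higher with the fold threshold in addition. That threshold took the lower counts to 0 from 3 in the ERK5 and MEF2 list and in the KLF ligase list, to 2 from 5 for KLF cofactors, to 3 from 6 for the PI3K, AKT and SGK arm, to 1 from 3 for TGF-beta signalling, to 1 from 2 for S1P synthesis and to 10 from 16 for quiescence genes. It took the higher counts to 2 from 4 for the PI3K, AKT and SGK arm, to 3 from 5 for TGF-beta signalling and to 1 from 2 for KLF ligases and for the other S1P receptors, where S1pr2 lost its call. Direction changed only in Klf16 and Klf4, neither of them called. With single libraries left out the log2 fold change ran from -0.0039 to 0.21 for Klf16 and from -0.23 to 0.21 for Klf4, and without both libraries numbered 1 it was 0.14 for Klf4. The cause was not tested. Among 67 other named genes 46 kept their call in all alternatives, S1pr3 among them in the 19 in which it was tested. The log2 differences of the 3 ratios stayed between -1.80 and -1.39 for S1pr1 to S1pr4, -1.65 and -1.59 for Foxo1 to Foxo3, and -3.03 and -2.61 for Klf2 to other KLF genes.

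Same-numbered samples deviated together with correlations of 0.433, 0.138 and 0.0447. The value for the samples numbered 1 was the highest of all pairs, whereas control 3 correlated best with NET 2 (0.215). Whether same-numbered samples share a mouse or a culture is not in the labels and was not tested. With the replicate block 7018 genes were called in place of 5590, 8 of the 9 genes were lower and 1 was higher (Foxo3, 0.23, edgeR adjusted p = 0.0149).

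With the fold threshold 3167 of all genes were called. Upper quartile scaling moved the median of all genes to 0.04 and the share of calls that were higher from 49.95% to 55.9%. The rarest transcripts, such as S1pr3 and Klf4 at about 1 CPM, rest on few counts.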
